A study of Mus musculus with 6 samples.

Results

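The nuclei described here are hepatocyte nuclei of mouse liver in which 2 transcripts, Glul and Slc1a2, together made up at least 0.2% of all transcripts counted. A barcode (a droplet that held 1 nucleus) was taken as a hepatocyte nucleus when it had fewer than 5000 genes detected, under 5% mitochondrial counts, at least 2500 unique molecular identifiers (UMIs, each standing for 1 captured RNA molecule), at least 4 of the 6 hepatocyte genes Alb, Apob, Hnf4a, Ttr, Fn1 and Plg detected. It also had to hold at most 3 UMIs summed over Ptprc, Ptprb, Stab2, Dcn and Skap1, genes of leukocytes, endothelial cells and stellate cells. Of 41882 barcodes in 6 libraries, 10699 passed these limits, and 3718 of them (34.8%, or 8.88% of all barcodes) reached the Glul and Slc1a2 threshold. They are called the Glul/Slc1a2-high nuclei, and the 6981 that passed the same limits below the threshold are called the other hepatocyte nuclei.

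Hepatocytes are arranged in zones between the portal tract, where blood enters the lobule, and the central vein, where it leaves. The cells that line the central vein express glutamine synthetase, encoded by Glul, and use it to bind into glutamine the ammonia that escaped the urea cycle of the hepatocytes upstream. Slc1a2 encodes a glutamate transporter, Oat an ornithine aminotransferase that feeds the glutamate pool, and the pericentral programme as a whole is kept on by Wnt ligands of central vein endothelium acting through beta-catenin.

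Each library came from the liver of 1 male DIAMOND mouse, a strain described in the labels as a 129A1/SvIm and C57BL/6J cross, and all diets began at 2 months of age. The 2 Ctrl mice had eaten chow for 40 weeks, the 2 Pre-T mice a Western diet (a diet high in fat, with sugar water to drink) for 40 weeks without tumors, and the 2 Post-T mice the same Western diet for 48 weeks, after tumors had formed. For the Post-T mice the sample titles name tumor and the source names liver as the tissue. Diet, time on diet and tumor stage cannot be told apart between Post-T and Ctrl. The libraries held 22453658 to 40307564 UMIs, and 181 barcode sequences occurred in more than 1 library. Each mouse is 1 replicate, and p-values between groups rest on the spread between mice only. The mice were not randomized, according to the study's methods. Values of the 6 mice are given throughout by group, first the Ctrl mice, then the Pre-T mice and last the Post-T mice, with replicate 1 before replicate 2 in each group. Levels are UMIs of a gene per 1000000 UMIs (CPM) of the summed nuclei of 1 mouse. Because UMIs were counted from transcript ends, no correction for gene length was made.

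UMIs of Glul and Slc1a2 in nuclei of another cell type bear on these numbers before any other result. Endothelial nuclei (at least 3 UMIs of Ptprb plus Stab2 and at most 2 of the 6 hepatocyte genes) were used for this, and whether they express the 2 genes themselves was not tested. Of them, 0 of 31, 1 of 175, 8 of 189, 0 of 32, 17 of 165 and 23 of 32 reached the 0.2% threshold. These are shares of 0, 0.571, 4.23, 0, 10.3 and 71.9%. The counts of 0 in Ctrl 1 and Pre-T 2 come from few nuclei. Glul stood at 19.4, 48.6, 318, 282, 386 and 1914 CPM in these endothelial nuclei and Slc1a2 at 38.9, 67.3, 191, 0, 348 and 1074 CPM, at median depths of 1541, 1382, 2227, 1711, 1552 and 1805 UMIs. In Post-T 2 the endothelial nuclei had a median of 0.281% Glul plus Slc1a2, above the threshold itself, so that in this library most nuclei of another cell type passed 0.2% as well. The source of these UMIs was not tested. At 0.8%, a stricter threshold added after these nuclei had been seen, 2 of the 32 endothelial nuclei of Post-T 2 passed (6.25%), 1 of the 189 of Pre-T 1 (0.529%) and none of those of the other 4 mice.

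The Glul/Slc1a2-high nuclei numbered 153, 177, 677, 96, 1271 and 1344 of 2722, 2229, 1582, 1159, 1638 and 1369 hepatocyte nuclei. The share was 5.62, 7.94, 42.8, 8.28, 77.6 and 98.2%, so that it lay under 10% in both Ctrl mice and in Pre-T 2, at 42.8% in Pre-T 1 and at 77.6 and 98.2% in the Post-T mice. The exact 95% binomial intervals, which cover counting error only, were 4.79 to 6.55%, 6.85 to 9.14%, 40.3 to 45.3%, 6.76 to 10.0%, 75.5 to 79.6% and 97.3 to 98.8%. The Ctrl mice averaged 6.78 ± 1.64%, the Pre-T mice 25.5 ± 24.4% and the Post-T mice 87.9 ± 14.6% (SD, n = 2 each). The 4 Western diet mice averaged 56.7 ± 39.6% (SD, n = 4), which was 49.9 percentage points above the Ctrl mice, and the 2 sets of mice did not overlap (exact two-sided permutation test, p = 0.133, where 4 against 2 mice allow no p below 0.0667). Any pair of groups, with 2 mice against 2, can give no p below 0.333, the value each of the 3 pairs gave. The separation rests on Pre-T 2 (8.28%) against Ctrl 2 (7.94%) and was lost at a 0.4% threshold, where they stood at 3.02 and 4.93% (difference of the 2 sets 42.2 points, exact permutation test, p = 0.267). It was lost at 0.8% and with Slc1a2 alone as well. At the 0.8% threshold the share was 0.0367, 0.449, 10.7, 0.345, 6.41 and 82.0%, which kept Pre-T 1 and both Post-T mice above the other 3 and put Post-T 1 below Pre-T 1. With Slc1a2 alone at 0.2% it was 2.57, 6.95, 29.8, 1.38, 57.6 and 92.1%, and with Glul alone 3.01, 3.28, 35.3, 5.87, 28.9 and 95.5%. The levels of Glul and Slc1a2 in the endothelial nuclei were highest in Post-T 2, the library with the highest share, and their part in the share was not tested.

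**Figure D1:**
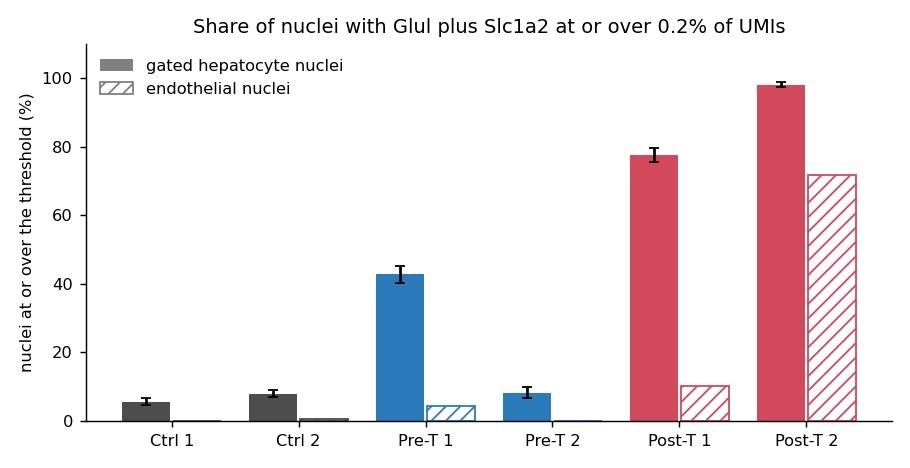
Share of hepatocyte nuclei with at least 0.2% of UMIs from Glul and Slc1a2 (vertical axis, percent) in each of the 6 mice, with exact 95% binomial intervals as error bars, and beside it, hatched, the share of endothelial nuclei that reached the same threshold. The hepatocyte share lay between 5.62 and 8.28% in Ctrl 1, Ctrl 2 and Pre-T 2 and reached 98.2% in Post-T 2, where 71.9% of the endothelial nuclei passed as well.

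Glul (chr1:153899944-153909723, + strand) and Slc1a2 (chr2:102658659-102790784, + strand) chose the nuclei, so their levels are a description with no test. Glul stood at 2033, 1449, 2985, 2662, 1881 and 5383 CPM in the Glul/Slc1a2-high nuclei and at 35.1, 20.7, 201, 135, 359 and 849 CPM in the other hepatocyte nuclei. Slc1a2 stood at 1939, 3221, 3480.5, 1158, 3461 and 5612 CPM and at 65.1, 59.4, 64.2, 30.5, 395 and 391 CPM. Post-T 2 was the highest of the 6 mice for both genes among the chosen nuclei, and for Glul also among the nuclei that were not chosen. Both transcripts were detected together in 94.8, 77.4, 98.7, 94.8, 99.4 and 99.9% of the chosen nuclei. The median nucleus drew 51.6, 29.4, 51.2, 71.4, 36.8 and 50% of its Glul and Slc1a2 UMIs from Glul. Pre-T 2 thus held mostly Glul and Ctrl 2 mostly Slc1a2, whereas Ctrl 1, Pre-T 1 and Post-T 2 held the genes at about equal weight.

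When nuclei were chosen on 1 of these genes, the other served as a measure the choice had not used. Nuclei with at least 0.2% Slc1a2 held Glul at 1742, 1431, 3085, 3302, 1896 and 5451 CPM against 119, 40.3, 718, 351, 1057 and 2924 CPM in the remaining hepatocyte nuclei. Nuclei with at least 0.2% Glul held Slc1a2 at 1828, 3108, 3488, 1127, 3666 and 5669.5 CPM against 129, 272, 493, 66.9, 2591 and 1349.8 CPM. In every mouse the gene that had not been used was higher in the nuclei chosen by the other, and as a ratio the difference was smallest in the Post-T mice. Values on both sides of the threshold overlapped across mice. Nuclei just inside it (0.2 to 0.25%, 13 to 82 nuclei per mouse) held Oat at 188, 352, 297, 101, 116 and 181 CPM and Cps1 at 1339, 2789.8, 411, 174, 1563 and 4399.6 CPM. Nuclei just outside it (0.15 to 0.2%, 13 to 64 nuclei) held Oat at 313, 234, 169.6, 233, 105 and 144 CPM and Cps1 at 1136, 3229, 223, 179, 656 and 2745 CPM.

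The label of pericentral glutamine-synthesizing hepatocytes was checked on 3 markers that the threshold did not use. These markers were listed with the label and so are not independent of it. Oat, Gulo (the last step of vitamin C synthesis) and Cyp2e1 (the ethanol-oxidizing cytochrome P450) were higher in the Glul/Slc1a2-high nuclei than in the other hepatocyte nuclei of the same mouse in 6 of 6 mice, as detailed with their lists. Position in the lobule was not measured, and in the Post-T mice, where most hepatocyte nuclei passed, the label describes Glul and Slc1a2 content and not a place beside a central vein. The chosen nuclei were also deeper. Their median UMI count was 5871, 7508, 9318, 8712, 7993 and 8754 against 4846, 5232, 7574, 5708, 5281 and 3708 in the other nuclei, a mean difference of 2635 UMIs over 6 mice in the same direction in all 6. Genes detected per nucleus differed by 698 on average. UMIs and genes per nucleus both entered the choice of nuclei, so these differences are a description without a test. Marker sums of other cell types were mostly lower in the chosen nuclei, although the limit on UMIs of other cell types applied to both kinds of nuclei. The 6 stellate cell and fibroblast markers summed to 90.0, 90.7, 70.1, 102, 66.3 and 30.6 CPM against 266, 244, 80.6, 162, 176 and 425 CPM. The 7 macrophage and monocyte markers summed to 25.6, 26.4, 69.7, 209.6, 39.6 and 16.0 against 74.7, 55.0, 111, 377, 121 and 467 CPM, and the 9 endothelial markers to 77.7, 76.5, 148, 113, 91.3 and 72.0 against 130.1, 92.8, 87.4, 138, 156 and 730.2 CPM. Of these markers 0 to 1, 0 to 2 and 0 to 2 were at 0 in the chosen nuclei of a mouse. The highest sums belonged to the other hepatocyte nuclei of Post-T 2, of which there were 25 with 117772 UMIs in all. The 6 hepatocyte markers used to choose the nuclei summed to 12682, 10972, 5106, 9804, 5373 and 10436 CPM in the chosen nuclei and to 17865, 13504, 7503, 11342, 10976 and 7625 CPM in the others.

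The first comparison asked how the Glul/Slc1a2-high nuclei differed from the other hepatocyte nuclei of the same liver, with the UMIs of each mouse summed in both kinds of nuclei and the mouse as a block. Among 19454 genes tested, 670 were higher (3.44%) and 1196 lower (6.15%) in the Glul/Slc1a2-high nuclei at an adjusted p under 0.05. Genes that mark the pericentral zone and targets of Wnt signalling were higher, and genes of the periportal zone were lower, at shares well above those of all genes tested. The lists were written with earlier results of these data known, and Cyp2e1 and Gulo of the pericentral list came with the label. The counts by list are therefore a description. Of 27 pericentral genes 25 were called higher and 0 lower. Of 16 Wnt/beta-catenin targets 11 were higher and 0 lower, and of 25 periportal genes 20 were lower and 0 higher. By DESeq2 the corresponding counts were 25, 10 and 20, again with 0 in the opposite direction. At an unadjusted p under 0.05 edgeR placed 0 pericentral, 1 Wnt target and 0 periportal genes in the opposite direction. Median log2 differences were 1.61 for the pericentral list, 2.11 for the Wnt targets and -2.14 for the periportal list, beside -0.03 over all genes tested. Here and below, log2 differences are given ± their standard error (SE) from the fit, with p-values adjusted over all genes tested. Over the alternatives run, the counts ranged from 21 to 26 pericentral genes and from 9 to 12 Wnt targets higher and from 15 to 22 periportal genes lower, with 0 in the opposite direction. The lowest were found without a block for the mouse, and for the pericentral list also with Slc1a2 alone as the choice. With both Post-T mice left out, a setting added after seeing the data, they were 25, 11 and 22 (of 24 tested). Leaving out Post-T 1 alone brought the number of genes called from 1866 to 1109.

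**Figure D2:**
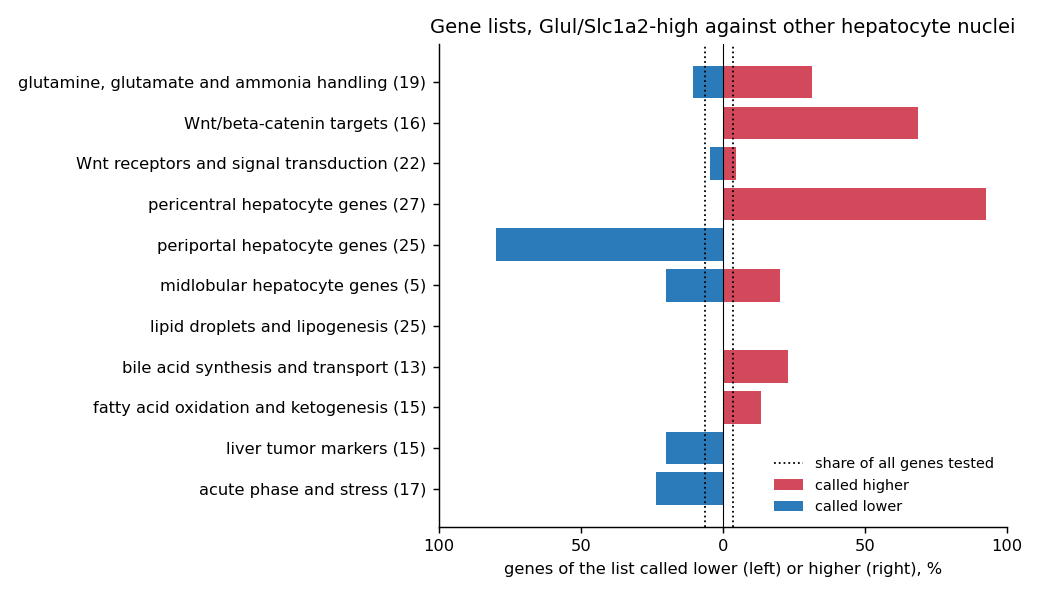
Percentage of the tested genes of each list that were called higher (to the right) or lower (to the left) in the Glul/Slc1a2-high nuclei than in the other hepatocyte nuclei of the same mice. Dotted lines mark the 3.44% called higher and the 6.15% called lower among all genes tested, and the pericentral, Wnt target and periportal lists stand farthest from them.

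Of 19 genes for the handling of glutamine, glutamate and ammonia, 6 were called higher and 2 lower. Oat (chr7:132557478-132576398, - strand) stood at 366, 399.9, 421, 405, 162 and 267 CPM in the Glul/Slc1a2-high nuclei and at 62.4, 55.7, 63.8, 52.4, 59.2 and 127 CPM in the others, without overlap between the 2 kinds of nuclei, a log2 difference of 2.47 ± 0.22, adjusted p = 4.86e-05. Its 2 lowest values in Glul/Slc1a2-high nuclei were those of the Post-T mice. Rhbg, a membrane channel for ammonia, stood at 9.48, 8.80, 56.1, 31.3, 72.2 and 93.4 CPM against 1.13, 0.454, 4.13, 1.68, 18.2 and 76.4 CPM, a log2 difference of 3.06 ± 0.38, adjusted p = 0.000419. Its levels were higher in the Western diet mice than in the Ctrl mice in both kinds of nuclei. Slc1a4, a neutral amino acid transporter (log2 difference 1.94 ± 0.25, adjusted p = 0.000598), Prodh, which starts proline breakdown (log2 difference 1.55 ± 0.15, adjusted p = 6.79e-05), and Aldh4a1, which completes it by making glutamate (log2 difference 0.68 ± 0.15, adjusted p = 0.0141), were also higher. The call of Aldh4a1 was lost without Pre-T 2 or without Post-T 1 (adjusted p = 0.0549 and 0.0736 by edgeR). Pycr1, which makes proline, was called as well (log2 difference 2.37 ± 0.55, adjusted p = 0.0183), at no more than 8.30 CPM in any mouse. Its call was lost in 9 of 21 alternatives, among them those without Ctrl 2, Pre-T 1 or Post-T 1, and its log2 difference ranged from 0.668 to 2.70.

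Gls2, the liver glutaminase that breaks glutamine down, ran the opposite way. It stood at 37.9, 38.6, 4.65, 16.9, 2.86 and 0.399 CPM in the Glul/Slc1a2-high nuclei against 339.6, 420.1, 91.5, 119, 31.9 and 42.5 CPM in the others, lower in 6 of 6 mice by a log2 difference of -3.53 ± 0.26, adjusted p = 1.93e-05. In Post-T 2 the level of Gls2 in Glul/Slc1a2-high nuclei was 0.399 CPM, the lowest of all. Got1, a cytosolic aspartate aminotransferase, was called lower (log2 difference -1.05 ± 0.28, adjusted p = 0.0369), a call that was lost when any 1 of the Ctrl or Pre-T mice was left out. Glud1, glutamate dehydrogenase, did not pass the test, with 702, 724, 441, 764, 402 and 589 CPM against 616, 693, 726, 775, 436 and 314 CPM and a log2 difference of 0.15 ± 0.23, adjusted p = 0.811.

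Targets of Wnt/beta-catenin signalling were next. Axin2, a feedback inhibitor of the pathway that is induced by it in most tissues, stood at 80.5, 77.1, 303, 86.7, 327 and 128 CPM in the Glul/Slc1a2-high nuclei and at 7.11, 10.3, 22.5, 12.4, 108 and 0 CPM in the others (log2 difference 3.04 ± 0.30, adjusted p = 9.02e-05). Lgr5, a receptor for R-spondins that potentiate Wnt signals, stood at 574, 692, 607, 432, 563 and 525 CPM against 53.7, 64.8, 52.9, 38.2, 148 and 50.9 CPM (log2 difference 3.29 ± 0.24, adjusted p = 1.53e-05), and its level in Glul/Slc1a2-high nuclei kept within a narrow range in all 6 mice. Rnf43 and Znrf3 encode ubiquitin ligases that remove Wnt receptors from the membrane. Rnf43 stood at 596, 818, 1151, 611, 756 and 789.7 CPM against 134, 236, 197, 156, 277 and 119 CPM (log2 difference 2.19 ± 0.22, adjusted p = 0.000114), and Znrf3 had a log2 difference of 1.60 ± 0.22, adjusted p = 0.000959. Further calls were made for the transcription factor Tbx3 (log2 difference 2.03 ± 0.27, adjusted p = 0.000700), the secreted Wnt deacylase Notum (2.62 ± 0.28, adjusted p = 0.000182), the receptor Tnfrsf19 (2.72 ± 0.33, adjusted p = 0.000340) and the DNA-binding partner of beta-catenin Tcf7 (1.78 ± 0.30, adjusted p = 0.00278). The other targets, Ccnd1, Myc, Cldn2, Lhx2 and Zfp703, did not pass the test, and Ccnd1, a cyclin of the G1 phase, had a log2 difference of -0.53 ± 0.31, adjusted p = 0.383.

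Unlike Lgr5, 3 targets varied widely between mice. Nkd1, an inhibitor that acts on Dishevelled, stood at 23.7, 21.0, 1196, 26.5, 650.1 and 241 CPM in Glul/Slc1a2-high nuclei against 11.0, 9.76, 17.1, 3.93, 88.6 and 17.0 CPM (log2 difference 2.97 ± 0.61, adjusted p = 0.00981), and Pre-T 1, Post-T 1 and Post-T 2 stood far above the other 3 mice. Lef1, a transcription factor of the same family as Tcf7, stood at 0.948, 0, 309, 1.20, 667 and 227 CPM against 1.59, 1.21, 9.51, 1.12, 149.9 and 25.5 CPM (log2 difference 2.73 ± 0.65, adjusted p = 0.0198). In Ctrl 1, Ctrl 2 and Pre-T 2 hardly any Lef1 UMI was counted in either kind of nuclei. Without Post-T 1 its call was lost (log2 difference 2.96, adjusted p = 0.0652 by edgeR), DESeq2 did not call it (1.55, adjusted p = 0.367), and in the Ctrl mice and Pre-T 2 alone the direction turned (-1.09, adjusted p = 0.573). Sp5, a transcription factor that dampens the Wnt response, stood at 1.90, 5.41, 23.1, 3.61, 12.9 and 14.0 CPM against 0.0664, 0.303, 2.21, 0.702, 2.48 and 0 CPM (log2 difference 3.31 ± 0.38, adjusted p = 0.000275) and was likewise highest in Pre-T 1 and the Post-T mice. The same 3 mice are those with the largest shares of Glul/Slc1a2-high nuclei.

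At matched depth the same genes were read as shares of nuclei. After every nucleus had been thinned to 2500 UMIs, Lgr5 was detected in 63.4, 67.8, 67.1, 55.2, 62.2 and 60.4% of Glul/Slc1a2-high nuclei and in 7.90, 9.26, 10.3, 7.24, 21.8 and 12% of other hepatocyte nuclei. Without thinning, Lgr5 was detected in 9.68, 1.71, 3.17, 3.12, 12.7 and 6.25% of the endothelial nuclei, at their shallower depth, and in 88.2, 87.6, 88.8, 82.3, 83.9 and 84.0% of the Glul/Slc1a2-high nuclei. Lef1 was detected in 0, 0, 42.4, 0, 53.5 and 38% of the thinned Glul/Slc1a2-high nuclei, and in 0, 0.571, 2.65, 3.12, 9.09 and 3.12% of the endothelial nuclei without thinning. Axin2 was detected in 22.9, 17.5, 47.9, 17.7, 53.9 and 27.8% of the thinned Glul/Slc1a2-high nuclei and in 1.67, 2.34, 5.75, 2.35, 18.3 and 0% of the others. Even for Lgr5, a part of the Glul/Slc1a2-high nuclei of each mouse had no UMI at this depth.

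Promoters of the Wnt targets called higher were searched for the letters CTTTGAA and CTTTGAT, a core motif of the Tcf and Lef factors, on both strands, from 250 bases before to 50 bases after the start of each gene in RefSeq (GRCm38.p6). Of 32851 such windows of all genes, 2842 (8.65%) held a match. A window was found for 7 of the 11 Wnt targets, 13 windows in all, and 2 of these held a match (15.4%). Of 20 windows of 18 pericentral genes called higher 6 held one (30%), and of 14 windows of 13 periportal genes called lower 1 did (7.14%). The windows of Slc1a2 and Sp5 are shown since 1 gene chose the nuclei and the other was among the targets with the largest difference, with the match in capitals. Slc1a2 lies on the + strand at chr2:102706188-102706487 and Sp5 on the + strand at chr2:70474673-70474972, and the RefSeq start used for Slc1a2 falls inside the span of the gene given above.
Slc1a2: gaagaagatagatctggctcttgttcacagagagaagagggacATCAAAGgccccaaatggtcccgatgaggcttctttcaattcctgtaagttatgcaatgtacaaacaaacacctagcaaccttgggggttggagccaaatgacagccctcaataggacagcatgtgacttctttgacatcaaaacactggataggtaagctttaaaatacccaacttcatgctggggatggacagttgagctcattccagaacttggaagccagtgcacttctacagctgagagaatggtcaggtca
Sp5: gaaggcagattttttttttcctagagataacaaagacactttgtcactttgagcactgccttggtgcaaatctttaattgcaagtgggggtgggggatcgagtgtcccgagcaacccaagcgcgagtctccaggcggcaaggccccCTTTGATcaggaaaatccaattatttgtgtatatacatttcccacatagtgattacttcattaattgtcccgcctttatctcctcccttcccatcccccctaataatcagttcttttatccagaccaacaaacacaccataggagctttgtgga
The match of Slc1a2 began 207 bases before the gene start and was written on the opposite strand as CTTTGAT, and that of Sp5 began 104 bases before. A window of Tnfrsf19 held the other match among the Wnt targets, and the window of Glul held none. A match of letters is a description and was not linked to binding here.

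Of 22 receptors and transducers of the Wnt pathway tested, 1 was called higher and 1 lower. Lrp5, a Wnt co-receptor, was higher by a log2 difference of 0.71 ± 0.16, adjusted p = 0.0143, a call lost without either Ctrl mouse (adjusted p = 0.0518 and 0.0574 by edgeR). Tcf7l1, a member of the Tcf family that acts mainly as a repressor, stood at 17.1, 16.9, 9.76, 19.3, 9.11 and 6.78 CPM in Glul/Slc1a2-high nuclei against 174, 158, 94.1, 80.2, 79.5 and 127 CPM in the others, lower without overlap in all 6 mice (log2 difference -3.07 ± 0.19, adjusted p = 5.01e-06). Ctnnb1, which encodes beta-catenin, stood at 47.4, 40.6, 165, 73.5, 108 and 70.7 CPM against 49.4, 58.9, 77.3, 83.4, 74.1 and 119 CPM, and its log2 difference of 0.22 ± 0.22, adjusted p = 0.666 did not pass the test. The median log2 difference of the list was 0.15.

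Pericentral genes of drug, steroid and bile acid metabolism formed the list with the highest share of calls. Cyp2e1 stood at 2524, 3419, 1303, 1559.8, 708 and 1818 CPM in Glul/Slc1a2-high nuclei against 625, 1245, 514, 592, 444 and 1138 CPM in the others (log2 difference 1.41 ± 0.21, adjusted p = 0.00133). Its level in the Glul/Slc1a2-high nuclei was lower in each Western diet mouse than in either Ctrl mouse, and the level of Post-T 1 in chosen nuclei was below those of Ctrl 2 and Post-T 2 in other nuclei. Gulo stood at 529.7, 583, 609, 505, 574 and 933 CPM against 109, 96.9, 123, 123, 336 and 391 CPM (log2 difference 2.03 ± 0.22, adjusted p = 0.000209). Cyp7a1, the rate-limiting enzyme of bile acid synthesis, stood at 281, 482, 839, 528, 233 and 319.7 CPM against 55.1, 75, 181, 149, 82.8 and 50.9 CPM (log2 difference 2.26 ± 0.19, adjusted p = 4.13e-05), without overlap. Slc22a3, a transporter of organic cations, stood at 179, 64.3, 184, 192, 349.5 and 429 CPM against 8.30, 2.5, 12.8, 5.76, 62.5 and 76.4 CPM and had the largest difference of the list (log2 4.01 ± 0.31, adjusted p = 1.97e-05). Cyp27a1, the sterol 27-hydroxylase (log2 difference 1.09 ± 0.20, adjusted p = 0.00548), Rgn, which acts in vitamin C synthesis (1.34 ± 0.14, adjusted p = 0.000123), and Ahr, the receptor of dioxin (1.31 ± 0.22, adjusted p = 0.00315), were among the others called. Slc13a3, a carrier of dicarboxylates, was called with all 6 mice (log2 difference 2.72 ± 0.63, adjusted p = 0.0175) but not without Ctrl 1 (2.23, adjusted p = 0.0639 by edgeR). The genes not called were Nr1i3 (log2 difference 0.74 ± 0.24, adjusted p = 0.0793) and Csad (0.20 ± 0.24, adjusted p = 0.742).

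The 20 periportal genes that were lower included enzymes of the urea cycle and of amino acid breakdown. Cps1, which captures ammonia in the first step of the urea cycle, stood at 781, 1272, 75.4, 109.6, 895 and 1087 CPM in Glul/Slc1a2-high nuclei against 4418, 5448, 2373, 2645, 1740.2 and 2878 CPM in the others (log2 difference -2.55 ± 0.56, adjusted p = 0.0133), and was lowest in the Glul/Slc1a2-high nuclei of both Pre-T mice. Hal, which degrades histidine, stood at 118, 85.9, 7.12, 12, 0.893 and 0.559 CPM against 1135, 1221, 156, 178, 7.45 and 67.9 CPM (log2 difference -3.88 ± 0.30, adjusted p = 1.97e-05), and fell to near 0 in the Glul/Slc1a2-high nuclei of both Post-T mice. Sds, serine dehydratase (log2 difference -4.66 ± 0.56, adjusted p = 0.000347), Hsd17b13, a protein of lipid droplets (-3.29 ± 0.18, adjusted p = 2.94e-06), Cyp2f2, a periportal cytochrome P450 (-3.30 ± 0.28, adjusted p = 3.89e-05), and Gldc, of the glycine cleavage system (-3.54 ± 0.28, adjusted p = 2.75e-05), were lower as well. Pck1, G6pc, Hsd17b6, Cdh17 and Tdo2 did not pass the test. Pck1, the first committed enzyme of gluconeogenesis, had a log2 difference of -1.18 ± 0.43, adjusted p = 0.123.

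**Figure D3:**
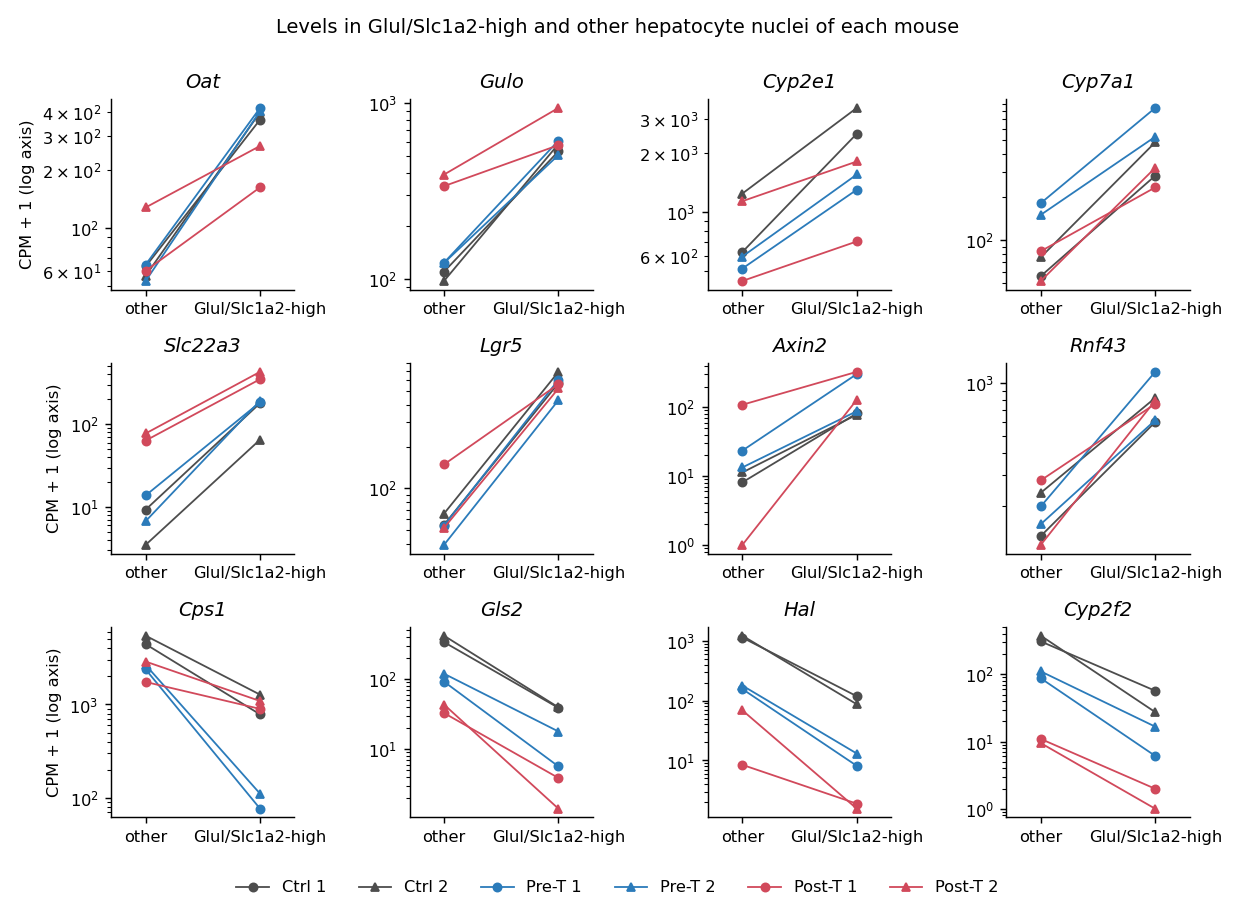
Levels of 12 genes in CPM plus 1 (vertical log axis) in other hepatocyte nuclei and in Glul/Slc1a2-high nuclei, each line joining both values of 1 mouse. Oat, Gulo, Cyp2e1, Cyp7a1, Slc22a3, Lgr5, Axin2 and Rnf43 rise from left to right in all 6 mice, and Cps1, Gls2, Hal and Cyp2f2 fall in all 6.

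Genes named by size of change alone, with a mean of at least 20 CPM and the same sign in every mouse, came from 304 called higher and 319 called lower that met these limits. Highest by fold stood Hcrtr2, a receptor of the neuropeptide orexin, at 40.7, 94.7, 116, 7.23, 42.4 and 20.9 CPM in the Glul/Slc1a2-high nuclei and 2.13, 1.89, 1.52, 0.281, 2.07 and 0 CPM in the others (log2 difference 5.23 ± 0.31, adjusted p = 3.08e-06). Slc22a3 and Lgr5 were in this set too, beside the imprinted RNA Meg3 (log2 difference 3.43 ± 0.56, adjusted p = 0.00245), the cGMP-dependent kinase Prkg2 (3.1 ± 0.48, adjusted p = 0.00179), the calcineurin regulator Rcan2 (3.14 ± 0.29, adjusted p = 6.26e-05), the phosphatase Lhpp (3.16 ± 0.35, adjusted p = 0.000227), Kif26b, Sgcz, Adamts17, Teddm2 and Adgrg2. Tbx3os1 and Rapgef4os1 are antisense to Tbx3 and Rapgef4, and whether reads were assigned by strand is not given in the sources used here. Lowest by fold were Aspg, an asparaginase, at 13.3, 16.9, 2.32, 2.41, 0.179 and 0.0798 CPM against 205, 313, 83.5, 91.5, 12.8 and 17.0 CPM (log2 difference -4.67 ± 0.26, adjusted p = 2.94e-06), and Sds. Sfxn1, a mitochondrial serine carrier (log2 difference -4.04 ± 0.31, adjusted p = 2.07e-05), Hal, Gldc and Cryl1 (-3.75 ± 0.24, adjusted p = 6.36e-06) also belong to amino acid or sugar metabolism. Others were Clstn2, Arhgap10, Lhfp, Cacna2d1, Ccbe1, Il34, Cacnb2 and Nrxn3. Il34, a ligand of the receptor Csf1r, stood at 0.948, 7.44, 1.70, 3.61, 1.07 and 3.19 CPM against 9.90, 13.4, 18.1, 24.6, 29.0 and 263 CPM. It was lower in 6 of 6 mice. The stellate cell and fibroblast marker sums given above were also lower in the Glul/Slc1a2-high nuclei in 6 of 6 mice, and their part in these differences was not tested.

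The remaining lists are given beside the 3.44% of all genes tested that were called higher and the 6.15% called lower. Called higher were 23.1% of the bile acid and 13.3% of the fatty acid oxidation genes. Called lower were 23.5% of the acute phase and 20% of the tumor marker genes. Of the midlobular genes, 20% were called in each direction. No gene of the 25 for lipid droplets and lipogenesis was called in either direction by edgeR, with 3 higher and 2 lower at an unadjusted p under 0.05, which 21.5% of all genes tested passed, and 1 higher by DESeq2. Fasn, fatty acid synthase, stood at 136, 64.3, 104, 293, 32.1 and 60.6 CPM against 236, 127, 160.4, 186, 27.3 and 25.5 CPM. Plin2, which coats lipid droplets, stood at 534, 344, 443, 329, 92.5 and 89.4 CPM against 297, 166, 345, 321, 107 and 136 CPM. Of the bile acid list, 3 of 13 genes were higher, Cyp7a1, Cyp27a1 and Nr0b2, the last a repressor of Cyp7a1. In fatty acid oxidation and ketogenesis 2 of 15 were higher, Ehhadh of the peroxisome (log2 difference 0.84 ± 0.16, adjusted p = 0.00511) and Bdh1, which makes the ketone body hydroxybutyrate (0.85 ± 0.13, adjusted p = 0.00207). Of 17 acute phase and stress genes 4 were lower: Saa1 (log2 difference -1.82 ± 0.20, adjusted p = 0.000211), Saa2 (-2.02 ± 0.24, adjusted p = 0.000296), Orm1 (-1.26 ± 0.22, adjusted p = 0.00434) and Orm2 (-1.01 ± 0.29, adjusted p = 0.0463). Saa1 and Saa2, and likewise Orm1 and Orm2, are close copies of each other between which reads could be split. Of 15 liver tumor markers Gpc3, Lcn2 and Tspan8 were lower, and of 5 midlobular genes Cyp3a11 was higher and Hamp lower. Among these, the calls of Gpc3, Lcn2, Hamp, Cyp3a11, Nr0b2 and Orm2 were each lost when some 1 mouse was left out.

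Grading the nuclei by their Glul and Slc1a2 content showed how the same genes moved along it within each mouse. These bands were cut on the same transcripts that chose the nuclei, and no test was made. In Pre-T 1, with 70 to 745 nuclei in every band, Cps1 stood at 2597, 1355, 604, 188, 57.0 and 31.6 CPM from the lowest band (under 0.05% of UMIs) to the highest (0.8% and above). Over the same bands Lgr5 went from 39.8 to 758 CPM, Nkd1 from 9.95 to 2363 CPM and Oat from 50.7 to 422 CPM. In Post-T 1, Lef1 went from 29.2 to 1027 CPM and Axin2 from 25.7 to 383 CPM, whereas Cps1 ran through 2331, 1654, 909, 993, 929.5 and 391 CPM. In Post-T 2, where nearly all nuclei lay above the threshold, Cps1 stood at 2765 CPM between 0.2 and 0.4%, at 2552 CPM between 0.4 and 0.8% and at 869.9 CPM from 0.8%. The lower bands held 44 and 178 nuclei and the highest 1122, in the library in which endothelial nuclei carried Glul and Slc1a2 as well.

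**Figure D4:**
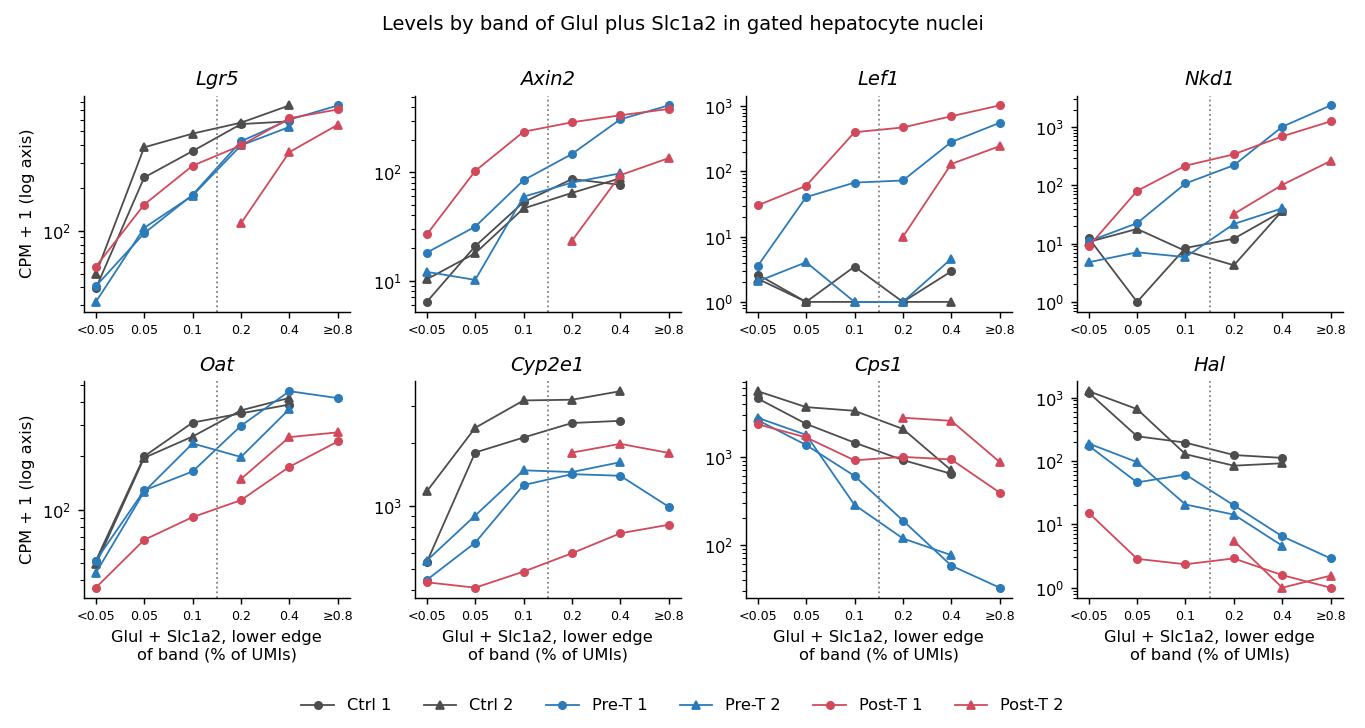
Levels of 8 genes in CPM plus 1 (vertical log axis) by the share of UMIs from Glul and Slc1a2 in the nucleus (horizontal axis, percent, in bands), 1 line per mouse, with bands of fewer than 20 nuclei left out and the 0.2% threshold dotted. Lgr5, Axin2 and Oat stand higher and Cps1 and Hal lower toward the right, while Lef1 and Nkd1 reach over 200 CPM in Pre-T 1 and the Post-T mice only.

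The second set of comparisons asked what changed in the Glul/Slc1a2-high nuclei between the 3 groups of mice. It used 6 sums in 1 fit with 16623 genes tested and 2 mice per group, and less RNA of a kind per nucleus cannot be told apart from fewer nuclei of a kind within the sum. The chosen nuclei were 5.62 and 7.94% of the hepatocyte nuclei in Ctrl, 42.8 and 8.28% in Pre-T and 77.6 and 98.2% in Post-T mice. Differences between groups, here and in the interactions below, therefore cannot be told apart from a change in which nuclei passed the threshold. All calls of these 3 comparisons were lost when either Ctrl mouse was left out, with 1033 to 2010 genes at an unadjusted p under 0.05 by edgeR. In each fit without 1 mouse, its group holds a single mouse that is assumed to vary like the other groups. Between Pre-T and Ctrl 2 genes were called (0.012% of those tested), Ephb2 higher and the gene model Gm50136 lower, and 1823 genes had an unadjusted p under 0.05, while DESeq2 called 322. Ephb2, a receptor tyrosine kinase that binds ephrins and a known Wnt target in the intestine, was not counted once in either Ctrl mouse and stood at 0, 0, 79.0, 92.7, 84.7 and 82.3 CPM. Its level was at least 72.5-fold higher in Pre-T (adjusted p = 0.0177 by edgeR) and at least 70.5-fold higher in Post-T (adjusted p = 0.0133), taking 3 counts over both Ctrl mice (1.18 CPM) as the floor. In the other hepatocyte nuclei it stood at 2.19, 0.605, 52.8, 30.2, 84.5 and 59.4 CPM. Gm50136, named because so few genes were called and so chosen after its values were seen, stood at 70.1, 62.3, 1.39, 1.20, 5.80 and 3.99 CPM (log2 difference -5.77 ± 0.44, adjusted p = 0.0177). Both calls were lost without Pre-T 1 as well (869 genes at an unadjusted p under 0.05) and without Pre-T 2, where 5 other genes were called. Both held without the first Post-T mouse, among 192 calls, and without the second, among 334.

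Between Post-T and Ctrl 27 genes were higher (0.162% of those tested) and 65 lower (0.391%), and DESeq2 called 880. All 92 had values without overlap between the 2 pairs of mice, as did 27.5% of all genes tested in the higher and 22.9% in the lower direction. Among the genes that were higher, Cyp39a1, an oxysterol hydroxylase, stood at 7.58, 7.44, 19.8, 15.7, 110.5 and 286 CPM (log2 difference 4.88 ± 0.62, adjusted p = 0.0267). Scara5, a receptor for ferritin, stood at 43.6, 37.9, 73.7, 62.6, 472 and 358 CPM (log2 difference 3.44 ± 0.34, adjusted p = 0.0192). Both genes stood several-fold higher in each Post-T mouse than in any Ctrl or Pre-T mouse. Fkbp5, a co-chaperone of the glucocorticoid receptor, stood at 25.6, 57.5, 42.9, 54.2, 353 and 757 CPM (log2 difference 3.88 ± 0.59, adjusted p = 0.0449). Pgm5, a relative of phosphoglucomutase, stood at 1.90, 0.677, 6.04, 3.61, 63.9 and 48.3 CPM (log2 difference 5.61 ± 0.55, adjusted p = 0.0192). Rbm24, an RNA-binding protein, was not counted in Ctrl mice and stood at 0, 0, 59.3, 22.9, 33.0 and 66.7 CPM, at least 42.1-fold higher in Post-T (adjusted p = 0.0449 by edgeR). The desmosomal genes Dsg1c (16.1, 13.5, 6.81, 8.43, 201 and 93.0 CPM) and Ppl (log2 difference 3.72 ± 0.44, adjusted p = 0.0247), and Ttll11, Tmprss2 and Grip1, also belonged to the set named by size. The call of Fkbp5 was lost in 7 of 16 alternatives, those of Rbm24 and Grip1 in 6, that of Tmprss2 in 5 and that of Ttll11 in 4, beyond the 2 without a Ctrl mouse at adjusted p-values of 0.0501 to 0.0713 for Fkbp5, Rbm24 and Grip1 (edgeR).

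Several of the genes that were lower in Post-T were nearly absent there. Hsd3b5, a steroid dehydrogenase of male mouse liver, stood at 214, 116, 0.155, 1.20, 0.536 and 0 CPM (log2 difference -9.14 ± 0.94, adjusted p = 0.0198). Hamp, which encodes the iron hormone hepcidin, stood at 237, 585, 53.1, 125, 3.04 and 0.638 CPM (log2 difference -7.75 ± 0.89, adjusted p = 0.0216), with both Pre-T mice between the Ctrl and the Post-T mice. Cyp8b1, the enzyme that directs bile acid synthesis to cholic acid, stood at 113, 71.1, 4.80, 13.2, 1.07 and 0.319 CPM (log2 difference -6.95 ± 0.69, adjusted p = 0.0192). These 3 genes stood lower in every Western diet mouse than in every Ctrl mouse. Among all genes tested, 14.1% were lower without overlap in Pre-T than in Ctrl and 22.9% in Post-T than in Ctrl. Etnppl, which degrades phosphoethanolamine, stood at 97.6, 83.2, 1.86, 1.20, 3.84 and 1.04 CPM (log2 difference -5.16 ± 0.57, adjusted p = 0.0213). Tmeff2, a membrane protein, stood at 479, 88.0, 0.155, 1.20, 0.179 and 0.160 CPM (adjusted p = 0.0198 by edgeR), with a wide gap between the 2 Ctrl mice. Cyp2d9 at 697, 647, 91.0, 154, 20.9 and 11.7 CPM (log2 difference -5.29 ± 0.45, adjusted p = 0.0165), Mup10 at 60.6, 52.8, 1.24, 6.02, 0.268 and 0.0798 CPM (log2 difference -8.12 ± 0.78, adjusted p = 0.0192), Mup11 and Ugt2b1 (log2 difference -4.93 ± 0.60, adjusted p = 0.0247) were lower too. They belong to families of near-identical genes, so reads of 1 member can be counted for another. Nudt7 (log2 difference -4.96 ± 0.52, adjusted p = 0.0198), a peroxisomal hydrolase of coenzyme A, and Slc30a10 (-4.62 ± 0.73, adjusted p = 0.0462), a manganese exporter, were also named by size. The call of Slc30a10 was lost in 7 of 16 alternatives. Leaving out 1 of the Western diet mice gave more calls in this comparison than the 92 with all mice: 158 and 146 without the first and the second Pre-T mouse, 602 and 776 without the first and the second Post-T mouse.

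**Figure D5:**
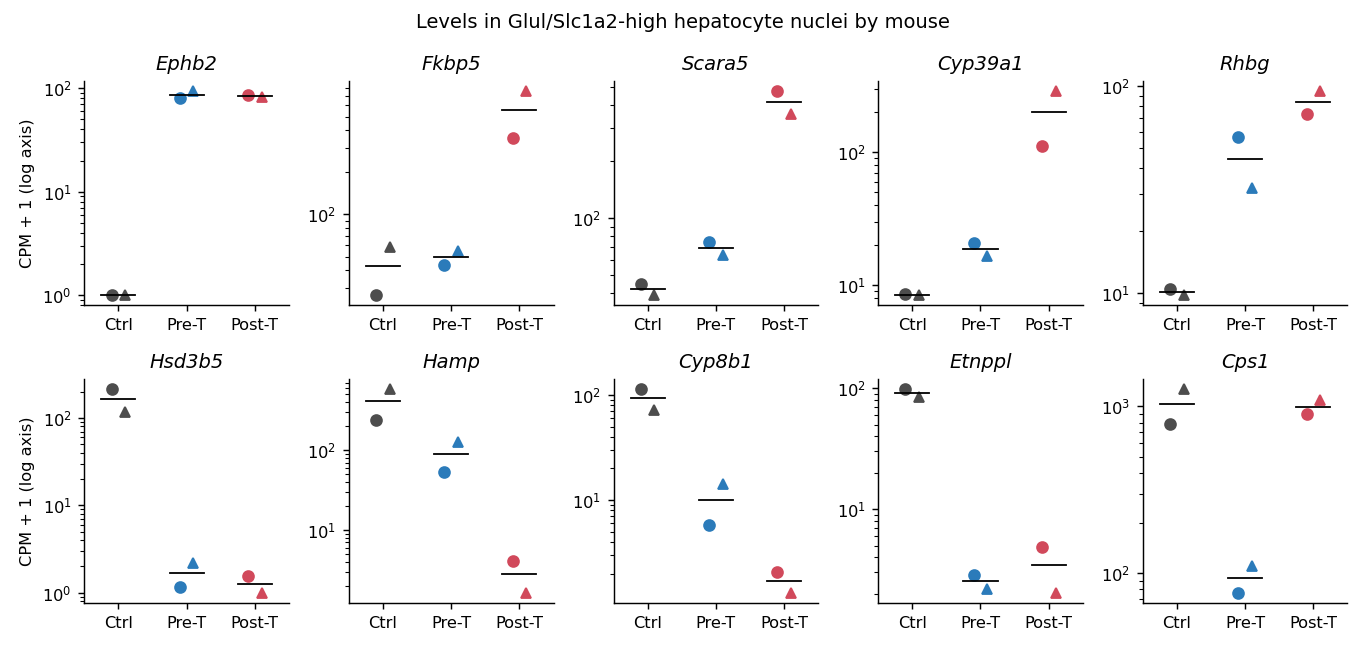
Levels of 10 genes in the Glul/Slc1a2-high nuclei in CPM plus 1 (vertical log axis) by group, with 1 point per mouse and lines at the group means (n = 2). Ephb2 is at 0 in both Ctrl mice and between 79.0 and 92.7 CPM in the 4 Western diet mice, and Hsd3b5, Hamp and Cyp8b1 stand lower in each Western diet mouse than in either Ctrl mouse.

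By list, the group comparisons found few calls at an adjusted p under 0.05 by edgeR, as among all genes tested (0.162% called higher and 0.391% lower in Post-T against Ctrl). In that comparison 17.4% of the periportal and 40% of the midlobular genes tested were called lower. In Post-T against Ctrl, 4 of 23 periportal genes were lower (Hal, Sds, G6pc and Etnppl), 2 of 5 midlobular genes were lower (Hamp and Cyp8b1, the latter also on the bile acid list), and 1 of 17 acute phase and stress genes was lower (Gdf15, log2 difference -2.70 ± 0.40, adjusted p = 0.0390, a call lost in 6 of 16 alternatives). Of 19 glutamine and ammonia genes Rhbg was higher (log2 difference 3.30 ± 0.44, adjusted p = 0.0327) and Asns, asparagine synthetase, lower (log2 difference -6.60 ± 0.82, adjusted p = 0.0266). No Wnt target of 16, no pericentral gene of 27, no lipid gene of 25 and no tumor marker of 15 was called in any of the 3 group comparisons by edgeR. At an unadjusted p under 0.05, Post-T against Ctrl had 6 Wnt targets higher and 0 lower, 2 pericentral genes higher and 4 lower, 4 lipid genes higher and 3 lower, and 5 tumor markers higher and 0 lower. Of all genes tested, 9.46% were higher and 7.89% lower at that p. DESeq2 called 1 Wnt target, 2 pericentral genes and 2 tumor markers higher and 4 pericentral and 2 lipid genes lower there, among 880 calls over all 16623 genes tested, 336 of them higher. In Pre-T against Ctrl, among 322 calls with 120 higher, it called 1 pericentral gene, 2 lipid genes and 2 tumor markers higher and 2 pericentral genes lower. There 2 Wnt targets, 1 pericentral gene, 4 lipid genes and 6 tumor markers were higher and 1 Wnt target and 5 pericentral genes lower at an unadjusted p under 0.05, as were 5.90% and 5.07% of all genes. In Post-T against Pre-T no Wnt target passed at an unadjusted p under 0.05 or by DESeq2, and 4 pericentral genes, 1 lipid gene and 1 tumor marker were higher and 2 pericentral and 4 lipid genes lower at an unadjusted p under 0.05, with 2 lipid genes called lower by DESeq2 among 569 calls with 207 higher. Of all genes, 7% were higher and 7.52% lower at that p. In Pre-T against Ctrl, 15 of 23 periportal genes were lower and 1 higher at an unadjusted p under 0.05. DESeq2 called 9 lower and 1 higher. Post-T against Ctrl had 12 lower and 1 higher by either measure. The periportal median log2 differences were -1.74 and -2.02, beside 0.12 and 0.19 over all genes tested. At that p, 6 and 7 of 13 bile acid genes were lower and 0 higher. Of 19 glutamine and ammonia genes, 8 and 4 were lower and 2 higher in each comparison. Lef1 and Nkd1, for which Pre-T 2 stood with the Ctrl mice, had log2 differences of 10.10 ± 2.40, adjusted p = 0.106 and 4.37 ± 1.42, adjusted p = 0.187 between Post-T and Ctrl. Of the tumor markers, H19, an imprinted fetal RNA, was counted in no Ctrl or Pre-T mouse and stood at 1.61 CPM in Post-T 1 and 113 CPM in Post-T 2. Ly6d stood at 0.948, 0, 58.1, 14.5, 19.6 and 15.3 CPM, higher in all 4 Western diet mice than in the Ctrl mice. Of all genes tested, 32.9% were higher without overlap in Pre-T than in Ctrl and 27.5% in Post-T than in Ctrl. Afp, a fetal liver protein, stood at 3.79, 2.71, 22.5, 7.23, 5.71 and 4.71 CPM.

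Between Post-T and Pre-T 15 genes were called (0.0902% of those tested), 8 higher and 7 lower, all without overlap between the 2 pairs of mice, as were 13.2% and 31.1% of all genes tested in these directions. Dsg1c (4.58 ± 0.44, adjusted p = 0.0475), Pgm5 (3.69 ± 0.43, adjusted p = 0.0475) and Scara5 (2.90 ± 0.32, adjusted p = 0.0475) were again higher in Post-T, with log2 differences in parentheses, and since both comparisons use the same Post-T mice these repeats are no separate evidence. Cps1 was higher as well (log2 difference 3.76 ± 0.46, adjusted p = 0.0498), with the levels given above, of which those of Post-T lay within the range of the Ctrl mice. Igfbp2, which binds insulin-like growth factors, stood at 40.7, 37.9, 1.70, 6.02, 80.5 and 111 CPM (log2 difference 5.45 ± 0.59, adjusted p = 0.0475). Ccnd3, a cyclin, stood at 97.6, 75.1, 65.3, 42.2, 406 and 337 CPM (log2 difference 3.06 ± 0.37, adjusted p = 0.0498). Lrrn3, a neuronal membrane protein, was lower, at 53.1, 52.1, 105, 97.6, 11.4 and 13.2 CPM (log2 difference -2.71 ± 0.31, adjusted p = 0.0475). In the other hepatocyte nuclei Ccnd3 stood at 82.5, 94.8, 69.7, 68.9, 384 and 340 CPM. Scara5 stood there at 31.6, 40.6, 51.8, 67.4, 247 and 119 CPM. Dsg1c stood there at 25.8, 45.0, 51.8, 41.6, 161 and 110 CPM, and Lrrn3 at 31.8, 40.4, 109, 75.2, 13.3 and 0 CPM. The differences of these genes were thus not limited to the Glul/Slc1a2-high nuclei, whereas Cps1 overlapped between Post-T and Pre-T in the other nuclei. No call of this comparison was left without any 1 of the Ctrl or Pre-T mice, with 1379 to 2010 genes at an unadjusted p under 0.05 by edgeR, whereas 502 and 238 genes were called without the first and the second Post-T mouse. DESeq2 with all mice called 569.

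The last comparison asked whether the difference between Glul/Slc1a2-high and other hepatocyte nuclei of the same mouse itself changed between groups, by an interaction term. Of 19454 genes, 4 were called between Pre-T and Ctrl (0.0206%), 10 between Post-T and Ctrl (0.0514%) and 1 between Post-T and Pre-T (0.00514%), with 830, 1254 and 1088 at an unadjusted p under 0.05, and 28, 82 and 43 by DESeq2. Hsd17b6, a steroid dehydrogenase listed as periportal, stood at 9.48, 44.0, 3.25, 0, 135 and 188 CPM in Glul/Slc1a2-high nuclei against 158, 584, 25.1, 12.1, 49.3 and 93.4 CPM in the others. It was lower in the Glul/Slc1a2-high nuclei of the Ctrl and Pre-T mice and higher in those of both Post-T mice, an interaction of 5.44 ± 0.45, adjusted p = 0.00169 against Ctrl and 4.6 ± 0.53, adjusted p = 0.0476 against Pre-T. Slc13a3 stood at 98.6, 67.0, 57.8, 71.1, 56.1 and 62.0 CPM against 3.99, 0.908, 15.6, 14.5, 54.3 and 42.5 CPM, so that its level in Glul/Slc1a2-high nuclei was alike in all groups and its level in the other nuclei was higher in Western diet mice (interaction Post-T against Ctrl -4.79 ± 0.55, adjusted p = 0.0244). Igfbp2 stood at 259, 239, 15.4, 26.5, 81.6 and 84.9 CPM in the other nuclei, above the Glul/Slc1a2-high nuclei in Ctrl mice and close to them in Post-T mice (interaction 3.08 ± 0.39, adjusted p = 0.0307). Tmeff2 stood at 29.6, 7.79, 2.07, 2.25, 2.90 and 0 CPM in the other nuclei, and its large difference in Ctrl mice was not seen in the Western diet mice (interaction -6.36 ± 0.77, adjusted p = 0.0184 for Pre-T and -7.24 ± 1.04, adjusted p = 0.0357 for Post-T). The interaction of Tmeff2 for Post-T was -0.29 without Post-T 1 (adjusted p = 1) and lost its call in 8 of 15 alternatives, those without any 1 of the 6 mice, filterByExpr and thinning. For Pre-T it was -4.58 without Pre-T 1 (adjusted p = 1) and lost its call in 4 of 15. Ebf1, Tshz3, Atrnl1 and Abcc4 were called between Post-T and Ctrl as well. For Ebf1, a transcription factor of B cells and stromal cells, the values were 35.1, 12.2, 4.96, 0, 0.982 and 10.6 CPM against 39.3, 23.4, 6.48, 12.8, 36.4 and 773 CPM, and the high value came from the 25 other hepatocyte nuclei of Post-T 2, in which the marker sums of stellate cells, macrophages and endothelial cells were highest as well. Their part in this result was not tested. All calls of the 3 interactions were lost without either Ctrl mouse (367 to 759 genes at an unadjusted p under 0.05 by edgeR), and those between Pre-T and Ctrl also without Pre-T 1 (340 genes), whereas 36 were called without Pre-T 2. For Post-T against Ctrl, 3 were called without either Pre-T mouse, 350 without the first Post-T mouse, 6 of the 10 among them, and 5 without the second. For Post-T against Pre-T, none was called without either Pre-T mouse (625 and 1128 genes at an unadjusted p under 0.05), 484 were called without the first Post-T mouse and 17 without the second. The interaction of Hsd17b6 against Pre-T was 10.6 without Pre-T 1 (adjusted p = 0.295 by edgeR), and that of Abcc4 against Ctrl was -1.08 with a 0.1% threshold (adjusted p = 0.69).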

How the data were processed

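Nuclei from the snap-frozen livers of 6 mice were profiled by the 10x Genomics 3' droplet assay (Next GEM v3.1), 1 library per mouse and 2 mice per group. The authors deposited raw counts of UMIs per gene and called barcode, with no normalization, made with Cell Ranger 6.1.1 on the mm10 build according to the submitters' processing notes. Each deposited matrix comes with a list of genes (32285) and a list of barcodes. Whether intronic reads were counted and how ambient RNA was treated is not given in the sources used here. The study's methods name a ceiling of 5000 genes as the limit against droplets with more than 1 cell, and no doublet caller. None was run here, and the limits on genes and on UMIs of other cell types were the only guard. Libraries held 5638 to 8469 barcodes.

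The threshold, the limits and the gene lists were chosen with earlier results of these data known. UMIs of the chosen and of the other hepatocyte nuclei were summed per mouse. Genes with at least 10 counts over the sums of a fit were tested with edgeR 4.0.16 (TMM, quasi-likelihood, R 4.3.3) and Benjamini-Hochberg adjustment over all genes tested, threshold 0.05. Glul and Slc1a2 were left out of all calls, and the 11 genes of the other limits out of the calls between the 2 kinds of nuclei. Alternatives were DESeq2 1.42.0 (the tool of the study), size factors, other count minimums, thresholds and limits, thinning to 2500 UMIs per nucleus, each mouse left out, and the fits named in the closing section. For the interaction, edgeR's default estimator gave an infinite prior degree of freedom, and after seeing this its newer estimator (prior 7.52) was used. The edgeR fits were also run on simulated counts with changes set in advance, where mice differed in depth and random spread only. The outcome of these runs is not reported here. For shares, exact permutation tests with mice as units went through every split of the mice in Python 3.11.15 (numpy 2.4.6, pandas 2.3.3, matplotlib 3.10.9). The binomial intervals came from scipy 1.17.1.

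Genes named are those of the 11 lists and of the cell type markers, Glul and Slc1a2, the 15 called genes with the largest and the 15 with the smallest log2 difference between the 2 kinds of nuclei that had a mean of at least 20 CPM over the 12 sums and the same sign in every mouse, up to 12 called genes per direction and group comparison with a mean of at least 20 CPM and no overlap, and up to 6 per direction and interaction. Gene models without a symbol were counted and not named, except Gm50136, and a few genes that met the rule are left out of the text. Pnliprp1 and Endod1 did not meet the rule and are named only because their interactions were called. Gene positions are those of GENCODE vM21 (mm10) and promoter sequences those of RefSeq (GRCm38.p6). The precision of a share is its exact 95% binomial interval, and intervals and floors of 3 counts cover counting error only.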

Additional observations from a re-analysis of the deposited data

Results flagged for a closer look

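The values in this section were singled out because the difference between Glul/Slc1a2-high and other hepatocyte nuclei of the same mouse differed between groups by the interaction term of the fit (edgeR quasi-likelihood, adjusted p under 0.05), each as a difference of 2 log2 differences. Between Pre-T and Ctrl these were Tmeff2 (-6.36), Gm50136 (-3.63), Cdc42ep5, an effector of the small GTPase Cdc42 (-3.13), and Pnliprp1 (9.83). Pnliprp1 alone was called higher. It stood at 0.948, 0, 68.9, 0, 3.66 and 69.0 CPM in Glul/Slc1a2-high nuclei and at 10.2, 0.0756, 0.827, 0, 2.48 and 34.0 CPM in the others. Between Post-T and Ctrl they were Hsd17b6 (5.44), Igfbp2 (3.08), Tmeff2 (-7.24), Ebf1 (-4.89), Slc13a3 (-4.79), Tshz3 (-4.06), Atrnl1 (-3.31) and Abcc4 (-2.80). Endod1 (-3.19) and a gene model without a symbol (-3.13) were called there as well. For Post-T against Pre-T, Hsd17b6 alone was called (4.6).

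Cdc42ep5 stood at 91.0, 13.5, 7.59, 8.43, 10.2 and 7.50 CPM in Glul/Slc1a2-high nuclei and at 42.2, 9, 46.2, 29.5, 11.6 and 8.49 CPM in the others. Abcc4, an exporter of organic anions, stood at 114, 108, 322, 85.5, 148 and 294 CPM and 10.6, 8.55, 91.5, 32.4, 94.4 and 280.2 CPM, Atrnl1 at 381, 325, 77.9, 206, 16.2 and 13.4 CPM and 492, 437, 249, 287, 205 and 314 CPM, and Tshz3 at 59.7, 35.9, 2.48, 4.82, 2.86 and 6.86 CPM and 19.9, 14.7, 4.13, 8.42, 16.2 and 84.9 CPM. For Tshz3 and Atrnl1 the values of the other nuclei of Post-T 2 rest on 25 nuclei. All these calls were lost without either Ctrl mouse. No group held 4 or more mice, so single mice were not tested for standing apart.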

How the results depend on the processing

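Between Glul/Slc1a2-high and other hepatocyte nuclei, 1866 genes were called, 1160 with Glul alone as the choice, and 1109 to 2069 with 1 mouse left out. Of 1695 pairs of a named or listed gene and an alternative other than leaving out 1 mouse, 1582 kept direction and call, 112 lost the call, and 1 changed sign, Lef1 at -1.09 in the Ctrl mice and Pre-T 2 alone, a setting chosen after seeing the data. A further 678 pairs with 1 mouse left out had 606 that kept both and 72 that lost the call. In that comparison the mean difference in median UMIs ranged from 2152 to 2957 and in genes from 582 to 779.7 with 1 mouse left out.

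The group counts depended on the setting, and the cause was not tested. Listed as Pre-T over Ctrl, Post-T over Ctrl and last Post-T over Pre-T, the counts were 2, 92 and 15 as reported, 322, 880 and 569 with DESeq2, 33, 329 and 100 with a minimum of 3 counts, 2, 40 and 0 with filterByExpr, 0, 91 and 0 with a 0.1% threshold, 5, 96 and 15 with 0.4%, 7, 181 and 57 after thinning, 2, 94 and 35 with size factors, 3, 71 and 1 with 0 UMIs of other cell types, 2, 75 and 0 with the newer estimator, and 0 to 334, 0 to 776 and 0 to 502 with 1 mouse left out. A replicate block by the numbers in the labels gave 97, 532 and 255, and nothing in the labels says that these numbers pair mice. Counts of 0 had 1964 and 2487 (0.1%), 2073 (filterByExpr) and 2857 (newer estimator) genes at an unadjusted p under 0.05.

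For the interactions in the same order, the counts were 4, 10 and 1 as reported, 225, 394 and 322 with the default estimator run first, 28, 82 and 43 with DESeq2, 4, 10 and 3 with size factors, 5, 11 and 6 with a minimum of 3 counts, 0, 3 and 0 with filterByExpr (758 and 944 at an unadjusted p under 0.05), 3, 12 and 0 with 0.1% (1167), 22, 30 and 7 with 0.4%, 10, 9 and 2 after thinning, 119, 117 and 99 with 0 UMIs of other cell types, and 0 to 36, 0 to 350 and 0 to 484 with 1 mouse left out. Size factors moved the median of all genes in the Post-T against Ctrl interaction from 0.31 to 0.18, and that of the group comparison from 0.19 to 0.12. The former median was -0.11 with DESeq2 and 1.35 without Post-T 1. No called gene of the group comparisons or interactions that was named changed sign under any alternative. The smallest sum used for the interactions was that of the 25 other hepatocyte nuclei of Post-T 2, with 117772 UMIs.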

Other observations

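Markers of further cell types, not part of any comparison above, were summed in the Glul/Slc1a2-high nuclei and the other hepatocyte nuclei. The 6 cholangiocyte markers summed to 96.7, 127, 73.4, 100, 71.8 and 49.2 CPM against 201, 139.6, 224, 266, 307 and 93.4 CPM, lower in the Glul/Slc1a2-high nuclei in 6 of 6 mice. The 6 lymphocyte markers summed to 17.1, 8.12, 22.8, 25.3, 22.1 and 10.6 CPM against 27.0, 17.7, 23.6, 51.1, 38.9 and 153 CPM, and the 3 mesothelial markers to 2.84, 0.677, 0.619, 0, 0.0893 and 0.0798 CPM against 23.2, 12.6, 4.13, 1.97, 4.97 and 0 CPM. Median mitochondrial UMIs were 0.497, 0.271, 0.392, 0.700, 0.241 and 0.849% of UMIs in the Glul/Slc1a2-high nuclei and 0.658, 0.373, 0.516, 1.10, 0.408 and 0.422% in the others, higher in the former in 1 of 6 mice.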
